A study of Vitis vinifera with 219 samples.

Results

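The grape genes described here were read in the berry skin and flesh of one wine cultivar and were at or near 0 in that of the other. A gene was kept when the 5th percentile of its level was over 2 RPKM in one cultivar and the 95th percentile was under 0.3 RPKM in the other, over the libraries of 2012 and 2013 at time point 3 or later. RPKM counts the reads on a gene relative to its length and to the reads placed in that library. The members were thus chosen by measured RPKM values, so the contrast between cultivars in those libraries is a description. The rule used 45 libraries of Pinot noir and 63 of Cabernet Sauvignon and kept 48 of 29971 gene IDs, 26 high in Pinot noir and 22 high in Cabernet Sauvignon. The members therefore made up 0.211% of the 12327 genes whose 5th percentile was over 2 RPKM in Pinot noir and 0.182% of the 12069 such genes in Cabernet Sauvignon.

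Grapevine cultivars are clones propagated by cuttings, and cultivars of the same species differ in gene content, in the copies of a gene that they carry and in the sequence around them. The grape berry grows green and hard at first, then passes veraison, the turning point at which it softens, colours and begins to load sugar, and ripens after it. RNA sequencing reports a gene as low when it is not transcribed, when its sequence is missing from that cultivar, or when its reads differ too much from the gene model to be placed. These cannot be told apart in the values used here, and in tissue RNA fewer cells of a type and less RNA per cell cannot be told apart either. The table gives gene IDs with no names, and 0 of them matched the reference gene table, so no function, symbol or tissue marker is given for any gene. In this ID system the digits after VIT_ are the chromosome, followed by a sequence piece and a number that rises along it, and the chromosome digits 00 stand for sequence with no chromosome assigned.

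The study sampled berry pericarp of unthinned Vitis vinifera vines through 3 seasons near Modesto, California, with seeds removed. Cabernet Sauvignon was clone FPS 8 on rootstock 5C and gave 120 libraries (39 in 2012, 42 in 2013 and 39 in 2014). Pinot noir was clone FPS 23 on rootstock Freedom and gave 99 libraries (30, 33 and 36); its vines were planted later than those of Cabernet Sauvignon. Each of the 73 samplings had 3 libraries from blocks along 3 rows, each library from 60 pooled berries. Cultivar goes with clone, rootstock, vine age and planting in every library, so these cannot be told apart, and p-values cover the spread between blocks of 1 planting per cultivar, not between plantings. Sampling days are counted from the labelled day of veraison. At labelled day 0 the juice held on average 1.11 and 2.26 g sugar per 100 ml in 2014 (Pinot noir and Cabernet Sauvignon). The sampling means were 6.83 to 9.23 in the other 2 seasons, so equal days in 2014 were not equal sugar. RPKM summed over all genes lay between 807469 and 1192349 per library, and no read counts were given, so depth per library is unknown. Replicate 2 labelled Pinot noir at day -20 of 2014 stood apart from its own replicates. Its closest library was labelled Cabernet Sauvignon (day -23 of 2014, replicate 1), at a Pearson correlation of 0.953 across genes.

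The genes sorted all libraries but 4 by their labelled cultivar, and these 4, all of 2014, went against their labels. In the 45 and 63 libraries of the rule this sorting was fixed by the choice of genes. Outside the rule, 54 Cabernet Sauvignon and 53 Pinot noir libraries went with their labels and the 4 did not. The 3 libraries labelled Cabernet Sauvignon at day -23 of 2014 had a median of 9.14 to 10.8 RPKM over the 26 genes high in Pinot noir and of 0 to 0.05 RPKM over the 22 high in Cabernet Sauvignon. Replicate 2 labelled Pinot noir at day -14 of 2014 had medians of 0.02 and 6.23 RPKM, the reverse. VIT_19s0014g05360, for example, was at 157, 179 and 163 RPKM in the 3 libraries labelled Cabernet Sauvignon and at 0.49 RPKM in the library labelled Pinot noir. In the remaining libraries the median over the set of the other cultivar did not exceed 0.13 RPKM. That highest value belonged to replicate 3 labelled Pinot noir at day -20 of 2014, in which VIT_14s0030g00930 was at 2.65, VIT_12s0055g00440 at 2.44 and VIT_14s0030g00980 at 2.09 RPKM. Replicate 3 labelled Cabernet Sauvignon at day -23 listed the same genes at 1.60, 5.71 and 2.35 RPKM. None of these 5 libraries entered the rule or the means compared in ripening berries of 2014. All 5 entered the shared estimate of spread, and so the SE and p, of every fit on all libraries. Comparisons whose means include the 4 against their labels are given with and without them. Replicate 3 labelled Pinot noir at day -20 was kept in the counts of values over all seasons and outside the rule.

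**Figure D1:**
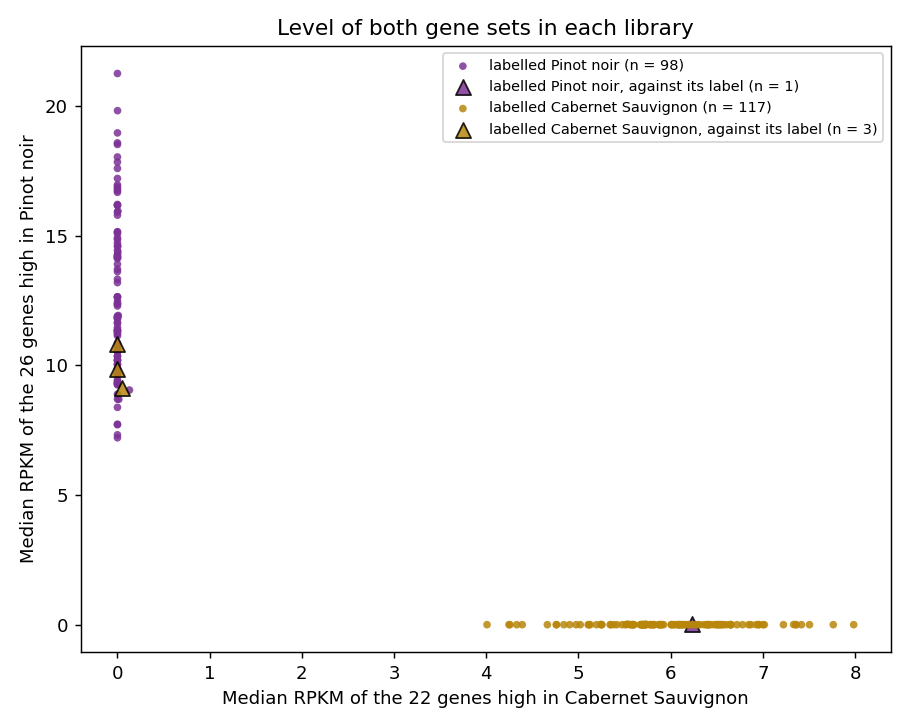
Each point is 1 library, placed by the median RPKM of the 22 genes high in Cabernet Sauvignon (x axis) and of the 26 genes high in Pinot noir (y axis), coloured by labelled cultivar. The 4 triangles are libraries of 2014 that lie among those of the other cultivar, 3 labelled Cabernet Sauvignon and 1 labelled Pinot noir.

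In the libraries that the rule used, the genes high in Pinot noir had the higher levels, which is a description of the choice and was not tested. Their median levels in Pinot noir ranged from 3.39 to 114 RPKM, with a middle value of 12.8, and 16 of 26 were at 10 RPKM or more. The genes high in Cabernet Sauvignon ranged from 3.23 to 29.3 RPKM there, with a middle value of 5.98, and 7 of 22 were at 10 RPKM or more. In the other cultivar the median was 0 for 19 of the 26 and 13 of the 22 genes, and 5 genes of each set were listed at 0 in every library the rule used.

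The 8 highest genes of the Pinot noir set spanned levels that varied little and levels that varied much. VIT_19s0014g05360 had a lowest value of 77.6, a median of 114 and a highest of 211 RPKM over the 45 Pinot noir libraries, and a highest of 0.49 RPKM in Cabernet Sauvignon. VIT_00s0160g00280 had a median of 81.2 RPKM and a highest of 221, was listed at 0 in 1 Pinot noir library, and was listed at 0 in all 63 Cabernet Sauvignon libraries. VIT_19s0014g05380 ranged from 17.4 over 73.3 to 178 RPKM. These 3 stood above the rest of the set by median. VIT_00s0346g00050 had a median of 37.6 RPKM, VIT_10s0116g00040 of 27.9, VIT_18s0117g00040 of 22.2, VIT_14s0068g00120 of 21.4 and VIT_18s0117g00070 of 18.9. VIT_18s0117g00040 ran from 1.09 to 153 RPKM in Pinot noir. VIT_10s0116g00040 gave the highest value of any gene of the set in the low cultivar, 9.07 RPKM in 1 Cabernet Sauvignon library (day 21 of 2012, replicate 1), and was listed at 0 in the 62 others. The other 18 genes had medians between 3.39 and 18.02 RPKM in Pinot noir, and none of them exceeded 0.66 RPKM in a Cabernet Sauvignon library of the rule.

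Of the Cabernet Sauvignon set, VIT_12s0055g00440 was highest, with a lowest value of 9.72, a median of 29.3 and a highest of 64.3 RPKM over 63 libraries, and was listed at 0 in all 45 Pinot noir libraries. VIT_09s0054g00030 ranged from 13.0 over 22.3 to 38.2 RPKM, and reached 0.39 RPKM in Pinot noir. VIT_03s0088g00140 had a median of 14.4 RPKM but a lowest value of 0.005, from a library taken before day 0. The next 5 by median were VIT_13s0047g01030 at 13.2, VIT_14s0030g00520 at 13.0, VIT_17s0000g00060 at 12.6, VIT_07s0005g00530 at 11.3 and VIT_05s0165g00230 at 8.10 RPKM. VIT_17s0000g00060 was at 0 in every Pinot noir library of the rule, whereas VIT_07s0005g00530 reached 0.40 RPKM. The other 14 genes had medians between 3.23 and 7.06 RPKM in Cabernet Sauvignon. Their highest value in Pinot noir was 0.56 RPKM, in VIT_18s0086g00440. VIT_07s0005g06200 and VIT_03s0110g00230 were above 0 in every Pinot noir library of the rule but did not exceed 0.08 and 0.21 RPKM.

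Genes on either side of the limits differed little from each other. Just inside, VIT_18s0117g00370 and VIT_18s0117g00070 had a 5th percentile of 2.12 RPKM in Pinot noir, and VIT_05s0029g01520 and VIT_14s0030g00980 had 2.06 and 2.16 in Cabernet Sauvignon. Just outside, VIT_00s0238g00060 had 1.98 and VIT_00s0160g00330 had 1.63 in Pinot noir, and VIT_14s0030g01100 had 1.90 and VIT_00s0441g00020 had 1.84 in Cabernet Sauvignon. On the upper limit for the other cultivar, VIT_11s0016g02600 and VIT_19s0014g05380 were inside at a 95th percentile of 0.24 and 0.21 RPKM, and VIT_09s0054g00030 and VIT_18s0086g00440 at 0.27 and 0.25. VIT_00s0238g00120 and VIT_12s0055g00160 were outside at 0.33 and 0.34 RPKM, as were VIT_01s0010g04010 and VIT_05s0051g00180 at 0.38 and 0.49.

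**Figure D2:**
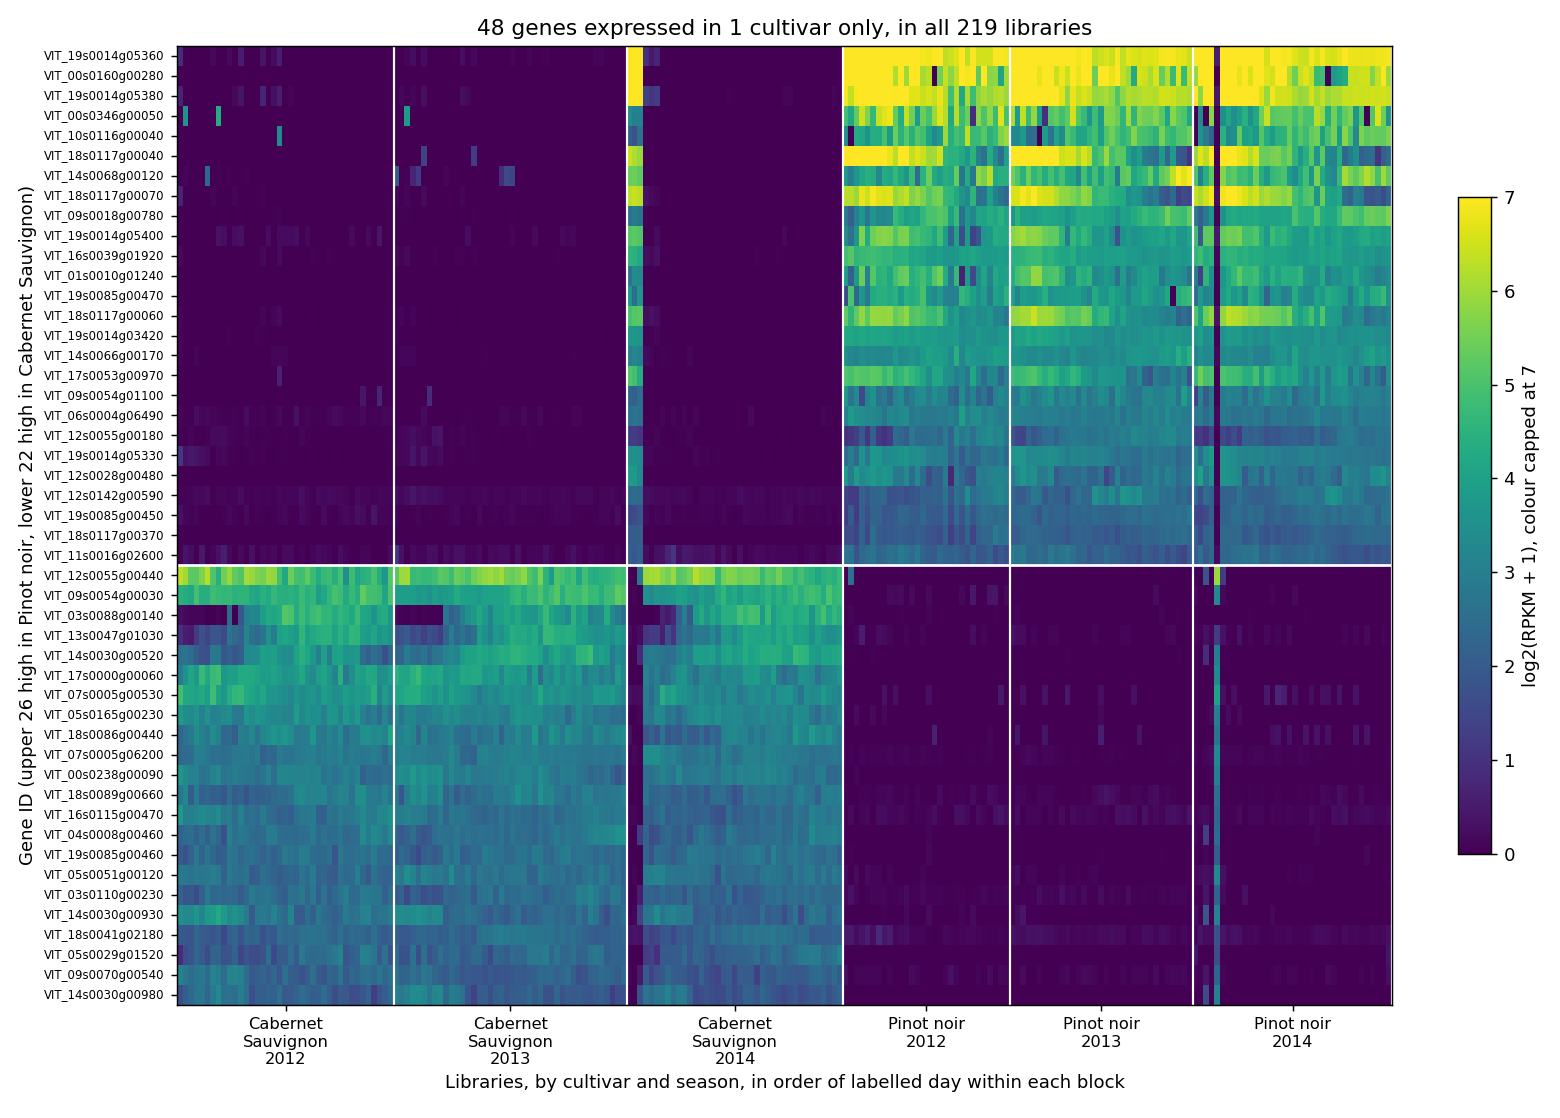
Rows are the 48 genes and columns all libraries of the study in blocks of cultivar and season, ordered by labelled day, with colour giving log2(RPKM + 1) up to a cap of 7. The 26 genes above the white line are bright in the Pinot noir blocks and the 22 below it in the Cabernet Sauvignon blocks, except for the first 3 columns of Cabernet Sauvignon 2014 and 1 column of Pinot noir 2014.

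Over all 3 seasons and without the 4 libraries against their labels, most values in the other cultivar were 0. These counts include the 63 and 45 libraries in which the rule itself fixed low values. Of the 3042 values of the 26 Pinot noir genes in 117 Cabernet Sauvignon libraries, 76.3% were 0 and 46 (1.51%) were at or over 0.3 RPKM. Of the 2156 values of the 22 Cabernet Sauvignon genes in 98 Pinot noir libraries, 66.4% were 0 and 33 (1.53%) were at or over 0.3. The number of genes that stayed at 0 in every library of the other cultivar was 4 of 26 and 1 of 22. In the cultivar that expressed them, 2.00% and 2.45% of values were at or under 2 RPKM. In the libraries that the rule did not use, 31 of 1404 values of the Pinot noir genes (2.21%, 54 Cabernet Sauvignon libraries) and 25 of 1166 values of the Cabernet Sauvignon genes (2.14%, 53 Pinot noir libraries) were at or over 0.3 RPKM. There 76.6% and 68.4% of values were 0, and 2.76% and 4.71% of the values in the expressing cultivar were at or under 2 RPKM.

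Single libraries broke the pattern for a few genes. VIT_00s0346g00050 was at 11.2, 19.1 and 12.9 RPKM in 3 libraries of green Cabernet Sauvignon berries (1 each at day -37 and day -18 of 2012 and day -26 of 2013), beside replicates at 0. VIT_14s0068g00120 reached 4.19 RPKM in green Cabernet Sauvignon berries of 2012 and 3.19 RPKM in those of 2013, with medians of 0 and 0.01 RPKM over 9 libraries, and 1.99 RPKM in later samplings of 2013. VIT_00s0160g00280 was listed at 0 in 2 Pinot noir libraries whose replicates were not, at day 11 of 2012 and day 35 of 2014. VIT_19s0085g00470 was listed at 0 in 1 Pinot noir library, at day 42 of 2013. Exact zeros also occurred in other well-expressed genes. Of 5997 genes with a median over 20 RPKM over all libraries, 94 had at least 1 library at 0, with 1763 such values together. Whether an exact 0 was a failed estimate or no expression was not tested.

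The 2014 season, which the rule did not use, showed the same separation in ripening berries. Over time points 3 to 10, whose labelled days (0 to 49) matched within 1 day, all 26 genes of the Pinot noir set were higher in Pinot noir, against 3.93% of the 21425 genes tested, and all 22 of the Cabernet Sauvignon set were higher in Cabernet Sauvignon, against 3.3%. A gene was called when limma gave an adjusted p under 0.05 and a difference of at least 1 on the log2(RPKM + 1) scale, a scale that understates the change of low genes. The members were chosen as high in 1 cultivar, whereas the genes tested had only to reach 1 RPKM in 3 libraries. The median difference, Pinot noir minus Cabernet Sauvignon, was 3.87 (range 2.06 to 6.86) over the Pinot noir set and -2.68 (range -5.31 to -1.87) over the Cabernet Sauvignon set, beside -0.02 over all genes tested. The highest limma adjusted p was 3.19e-37 in the first set and 2.44e-44 in the second. The libraries did not overlap between cultivars for 24 of the 26 genes, against 1.83% of genes tested, and for all 22 of the others, against 1.84%. The 2 that overlapped were VIT_00s0160g00280 and VIT_00s0346g00050, each of which was listed at 0 in 1 Pinot noir library of these time points. With a pseudocount of 5, which shrinks differences between low values, 12 of the 22 Cabernet Sauvignon genes were called.

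At time point 3 or later of 2014, VIT_19s0014g05360 had a lowest value of 84.0, a median of 111 and a highest of 178 RPKM over 27 Pinot noir libraries and was listed at 0 in all 30 Cabernet Sauvignon libraries. Its difference of 6.86 ± 0.14 (SE) on the log2(RPKM + 1) scale had a limma adjusted p of 3.05e-90. VIT_12s0055g00440 had 16.2, 34.9 and 75.0 RPKM over the 30 Cabernet Sauvignon libraries and was listed at 0 in all 27 of Pinot noir, a difference of -5.31 ± 0.15 (SE). At the other end, VIT_11s0016g02600 had 2.13, 3.74 and 6.02 RPKM in Pinot noir and up to 0.42 RPKM in Cabernet Sauvignon. VIT_09s0070g00540 had 1.62, 3.06 and 4.58 RPKM in Cabernet Sauvignon and up to 0.22 RPKM in Pinot noir. For both, every library of the expressing cultivar lay above every library of the other.

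Applied to 2014 alone, the rule kept 39 genes for Pinot noir and 30 for Cabernet Sauvignon. The 2014 list held 25 of the 26 genes (96.2% of the set and 64.1% of the list) and 19 of the 22 (86.4% and 63.3%). VIT_11s0016g02600 dropped out with a 95th percentile of 0.35 RPKM in Cabernet Sauvignon, and VIT_07s0005g00530 with one of 0.45 RPKM in Pinot noir. VIT_09s0070g00540 and VIT_14s0030g00980 dropped out with a 5th percentile of 1.77 and 1.95 RPKM in Cabernet Sauvignon. Among the genes kept in 2014 only, those with the highest 5th percentile in Pinot noir were VIT_19s0014g05370 at 75.3, VIT_07s0129g00100 at 56.5 and VIT_19s0085g00660 at 44.7 RPKM.

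**Figure D3:**
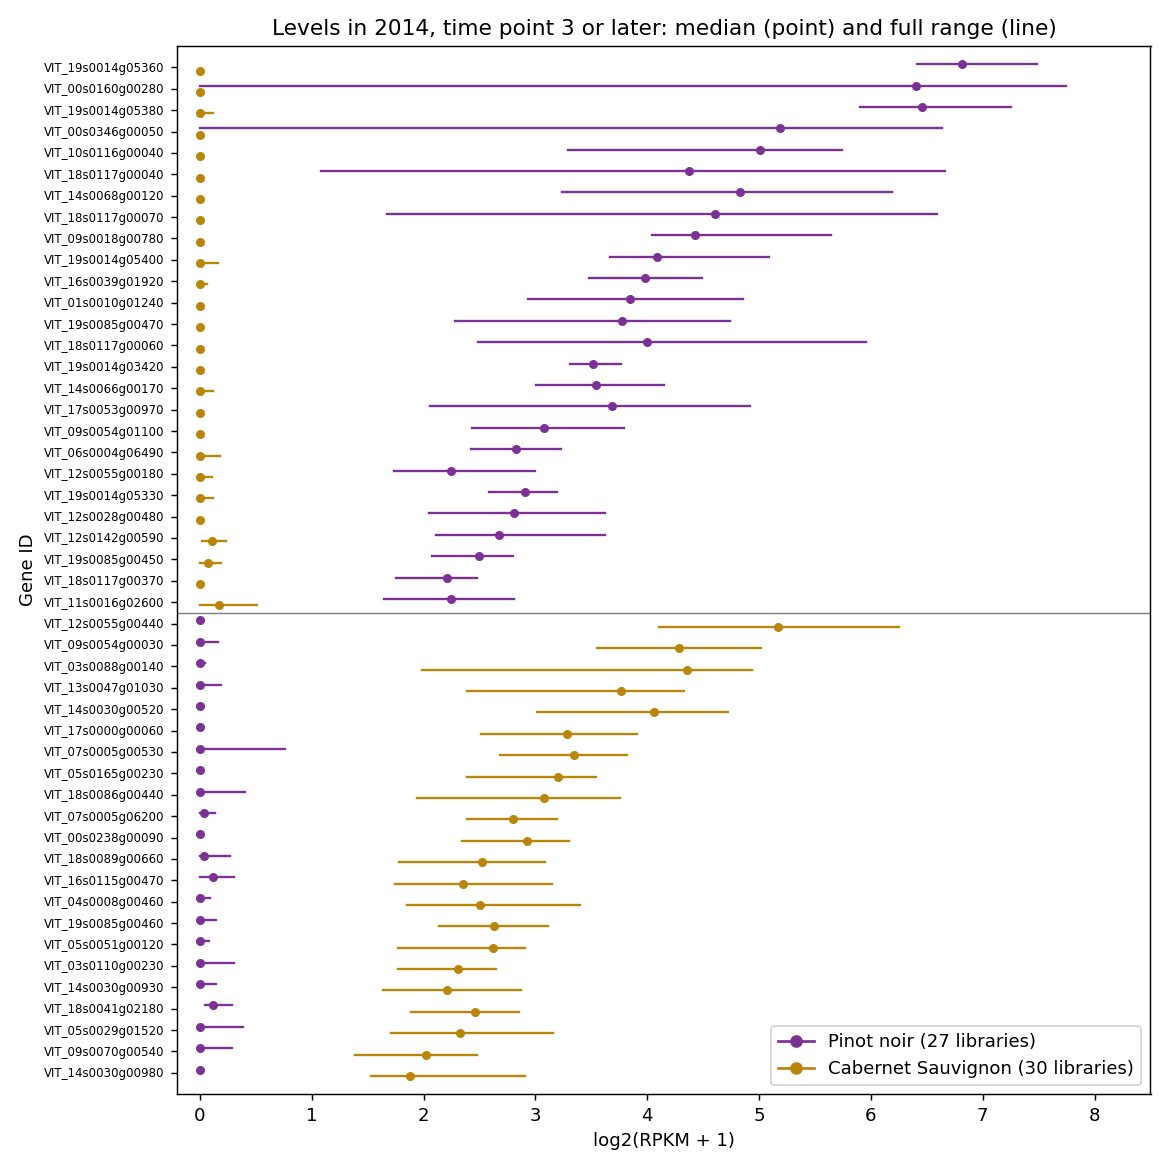
For each of the 48 genes, the point is the median and the line the full range of log2(RPKM + 1) at time point 3 or later of 2014, over 27 Pinot noir libraries (purple) and 30 Cabernet Sauvignon libraries (gold). The cultivars are apart for all genes but VIT_00s0160g00280 and VIT_00s0346g00050, whose Pinot noir ranges start at 0.

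In the expressing cultivar, the season medians of each gene lay within 1.74 times of each other. The libraries of 2012 and 2013 in these medians are those of the rule, which set a floor on the level. The same ratio was not computed over all genes, so these counts are descriptions. At time point 3 or later, the highest season median was less than 1.5 times the lowest for 23 of 26 genes in Pinot noir and 18 of 22 in Cabernet Sauvignon. The widest spread was 1.74 times, for VIT_12s0055g00180 in Pinot noir (5.58, 6.52 and 3.75 RPKM in 2012, 2013 and 2014), and 1.61 times, for VIT_17s0000g00060 in Cabernet Sauvignon (14.1, 12.0 and 8.75 RPKM). Levels moved more between samplings: the highest sampling mean was 54.8 times the lowest for VIT_18s0117g00040 and 50.5 times for VIT_18s0117g00070, with a middle value of 3.45 times over the Pinot noir set and 2.91 times over the Cabernet Sauvignon set.

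The separation was already present before veraison, at time points 0 to 2 (labelled day -37 to -6), which the rule did not use. The sampling means of juice sugar were at most 2.97 g per 100 ml there, and single libraries held more. The time points did not match in stage. In 2013 they were day -26, -20 and -13 in Cabernet Sauvignon and day -20, -14 and -7 in Pinot noir. Mean sugar at the last of these was 0.48 and 2.97 g per 100 ml, so stage is mixed with cultivar in these counts. In 2012 and 2013, with 18 libraries per cultivar, all 26 genes were higher in Pinot noir (3.06% of genes tested) and 21 of 22 were higher in Cabernet Sauvignon (3.96%). The differences ran from 1.56 to 8.12 over the first set on the log2(RPKM + 1) scale. The largest was that of VIT_00s0160g00280 (8.12 ± 0.30 SE, limma adjusted p = 8.39e-58), whose first sampling in 2012 stood at 439 ± 115 RPKM (SD, n = 3) in Pinot noir. The exception was VIT_03s0088g00140, which did not exceed 0.22 RPKM in these Cabernet Sauvignon berries of 2012 and 2013 (difference -0.06 ± 0.09 SE, limma adjusted p = 0.573). VIT_18s0041g02180 was called but was not at 0 in Pinot noir berries before veraison in 2012, where it ranged from 0.18 to 0.83 RPKM.

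Before veraison in 2014, with every library under its label, 25 of 26 genes were higher in Pinot noir (1.05% of genes tested) and 18 of 22 in Cabernet Sauvignon (1.37%). Without the 4 libraries against their labels the comparison rests on time points 1 and 2, and the counts were 26 of 26 (3.21%) and 20 of 22 (4.17%). The median difference over the Pinot noir set was 2.08 with those libraries and 3.87 without them, and that over the Cabernet Sauvignon set was -1.37 and -2.51. With every library and a pseudocount of 5, 14 and 1 were called. The pair not called without them was VIT_03s0088g00140 (-0.35 ± 0.17 SE, limma adjusted p = 0.0891) and VIT_13s0047g01030 (-0.96 ± 0.12 SE), both of which rose later. The library labelled Pinot noir with low levels of Cabernet Sauvignon genes, at day -20, is not part of time points 1 and 2.

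Through ripening, more genes of the Pinot noir set fell than rose past the threshold, as among all genes. The course compared labelled day 21 with the sampling before the onset of ripening (day -18 to -14), averaged over the 3 seasons. Because the rule asked for over 2 RPKM at time point 3 or later, a gene that fell to near 0 could not be a member, so the counts of falls are bounded by the choice. With every library under its label, 3 genes rose (6.48% of genes tested), 5 fell (20.4%) and 18 were not called. Without the 1 library against its label in this comparison, 2 rose (6.54%), 9 fell (20.5%) and 15 were not called, and the median change was -0.41, beside -0.02 with it and -0.33 over all genes tested. Quantile normalization shifted the median of all genes to 0.01 and, with every library, called 5 genes higher.

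Falls were seen in neighbouring genes of chromosome 18. VIT_18s0117g00040 was at 143, 147 and 110 RPKM at day -18 of 2012 and at 23.2, 21.0 and 21.4 RPKM at day 21. In 2013 it was at 213, 257 and 206 RPKM at day -14 and at 28.9, 36.5 and 35.3 RPKM at day 21. In 2014 it was at 136 and 130 RPKM at day -14 in the libraries that fit their label and at 22.5, 12.3 and 20.4 RPKM at day 21. The samplings did not overlap in any season. The change was -2.69 ± 0.16 (SE, limma adjusted p = 1.01e-35) without the library against its label and -1.91 ± 0.27 with it. The gene went on falling, to 9.18 ± 5.01 RPKM (SD, n = 9) at day 42, a further -1.42 ± 0.27 (SE, limma adjusted p = 1.63e-06). Its neighbour VIT_18s0117g00070 went from 107 ± 11.6 RPKM (SD, n = 8) before onset to 23.2 ± 4.96 at day 21 and 5.69 ± 3.54 at day 42 (n = 9 each). Those steps were -2.20 ± 0.11 without that library and -1.46 ± 0.23 with it, and then -1.96 ± 0.23 (SE). VIT_18s0117g00060 went from 62.4 ± 10.8 to 15.6 ± 3.38 RPKM (-1.94 ± 0.09 SE without that library, -1.33 ± 0.19 with it), and its further step to 8.66 ± 1.82 RPKM at day 42 (-0.77 ± 0.19 SE) was not called.

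A second group of falls lay on chromosome 19. VIT_19s0014g05400 went from 48.5 ± 7.04 RPKM before onset (SD, n = 8) to 10.7 ± 4.64 at day 21 (n = 9), a change of -2.19 ± 0.19 (SE) without the library against its label and -1.66 ± 0.24 with it. VIT_19s0014g05380 went from 212 ± 36.4 to 56.3 ± 16.2 RPKM (-1.90 ± 0.12 SE without it, -1.13 ± 0.24 with it). VIT_19s0014g05360 went from 251 ± 48.9 to 91.8 ± 13.8 RPKM, a fall of -1.38 ± 0.07 (SE) that was called only without that library. Between day 21 and day 42 none of these 3 was called, and at day 42 they stood at 12.7 ± 4.12, 78.4 ± 13.6 and 108 ± 13.6 RPKM. VIT_00s0160g00280 (344 ± 167 to 94.7 ± 51.3 RPKM), VIT_17s0053g00970 (30.4 ± 3.73 to 10.8 ± 3.06) and VIT_12s0028g00480 (10.1 ± 1.88 to 4.61 ± 2.06) also fell without that library.

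VIT_10s0116g00040 rose in Pinot noir. It was at 18.6, 29.98 and 13.0 RPKM at day -18 of 2012, at 4.64, 4.67 and 0 RPKM at day -14 of 2013, and at 3.64 and 21.0 RPKM at day -14 of 2014 in the libraries that fit their label. At day 21 it was at 60.2, 20.1 and 28.9 RPKM in 2012, at 43.4, 30.7 and 22.9 RPKM in 2013 and at 22.8, 34.6 and 26.9 RPKM in 2014. The samplings overlapped in 2012 but not in the other 2 seasons. The rise was 1.86 ± 0.30 (SE, limma adjusted p = 7.58e-09) without the library against its label and 2.23 ± 0.30 with it. VIT_12s0055g00180 rose from 2.18 ± 1.02 RPKM (SD, n = 8) to 5.49 ± 2.03 at day 21 (n = 9) (1.03 ± 0.07 SE without that library, 1.21 ± 0.08 with it). VIT_09s0018g00780 passed with that library (1.11 ± 0.15 SE) and not without it (0.71 ± 0.10 SE).

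The Cabernet Sauvignon set held genes that rose and none that fell past the threshold. Here too the rule asked for over 2 RPKM at time point 3 or later, and most genes of the set were low. The count of falls and the median change are therefore bounded by the choice. Between the sampling before onset (day -18 to -13) and day 21 to 22, 3 genes rose (5.82% of genes tested), 0 fell (19.1%) and 19 were not called. The median change was 0.15, beside -0.22 over all genes tested, and 16 of the 22 genes had an unadjusted limma p under 0.05, against 77.3% of genes tested. With each library scaled to the same sum, or with a pseudocount of 0.1, 2 genes were called lower, VIT_14s0030g00930 and VIT_14s0030g00980. Quantile normalization called 5 genes higher, adding VIT_18s0041g02180 and VIT_18s0086g00440.

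VIT_03s0088g00140 went from near 0 before onset to a mean of 22.0 RPKM at day 21 in Cabernet Sauvignon. Before onset its 9 values ran from 0 to 0.08 RPKM, and in the sampling at day -9 to -6 they ran from 0.005 to 5.63 RPKM. At day 0 it was at 7.34, 8.67 and 8.01 RPKM in 2012, at 7.11, 10.52 and 12.8 in 2013 and at 3.64, 6.91 and 2.96 in 2014. The lower values of 2014 were from berries with less sugar at the same labelled day. At day 21 to 22 it was at 18.8, 34.1 and 31.0 RPKM in 2012, at 13.9, 17.8 and 13.1 in 2013 and at 20.3, 19.9 and 28.8 in 2014. Every value at day 0 and day 21 to 22 lay above every value before onset. The change was 4.43 ± 0.13 on the log2(RPKM + 1) scale (SE, limma adjusted p = 6.95e-70), and at day 42 the level was 20.2 ± 6.40 RPKM (SD, n = 9), a difference of -0.12 ± 0.13 from day 21.

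VIT_13s0047g01030 rose more slowly, from 1.84 ± 0.565 RPKM before onset over 5.09 ± 1.22 at day 0 to 15.2 ± 3.32 at day 21 and 18.8 ± 1.51 at day 42 (SD, n = 9 each), a change of 2.51 ± 0.10 by day 21 (SE, limma adjusted p = 6.91e-55). VIT_14s0030g00520 went from 5.36 ± 1.22 RPKM to 10.6 ± 3.22 at day 0 and 15.5 ± 5.20 at day 21, a change of 1.34 ± 0.13 (SE). At the last sampling of 2012, day 80, VIT_14s0030g00520 was back at 4.11, 2.29 and 3.98 RPKM, while it stood at 15.7, 16.6 and 17.9 RPKM at day 63 of 2014, the last day of that season. The highest gene of the set, VIT_12s0055g00440, was at 41.7 ± 17.9 RPKM before onset, 57.6 ± 8.40 at day 7 to 11 and 28.6 ± 6.94 at day 42, and was not called in either step. VIT_09s0054g00030 was at 15.9 ± 7.00 RPKM before onset and 19.6 ± 3.44 at day 21, also not called.

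After day 21 few genes passed the threshold. In 2012 and 2013 both samplings compared are libraries of the rule, which set a floor of 2 RPKM. The counts of changes, and of falls above all, are therefore bounded by the choice. In Pinot noir 1 gene rose between day 21 and day 42 (2.32% of genes tested) and 2 fell (4.11%), the latter being VIT_18s0117g00040 and VIT_18s0117g00070. In Pinot noir 13 of 26 genes had an unadjusted limma p under 0.05, against 63.4% of genes tested. The gene that rose was VIT_14s0068g00120, at 19.7, 17.7 and 39.8 RPKM at day 21 of 2012 and 57.4, 46.0 and 75.4 at day 42. In 2013 it was at 24.1, 6.32 and 36.2 RPKM and then 37.2, 45.4 and 79.6, and in 2014 at 9.34, 16.9 and 28.6 and then 65.5, 47.1 and 37.4. The 2 samplings did not overlap in any of the seasons, and the rise was 1.40 ± 0.29 (SE, limma adjusted p = 1.02e-05). The last samplings of VIT_14s0068g00120 lay apart between seasons, from 18.6 to 20.08 RPKM at day 53 of 2012 and at 145, 99.2 and 177 RPKM at day 50 of 2013, a difference given here as values without a test. In Cabernet Sauvignon limma called 0 genes higher (0.719%) and 0 lower (3.26%), and 2 of 22 had an unadjusted p under 0.05, against 53.5% of genes tested.

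**Figure D4:**
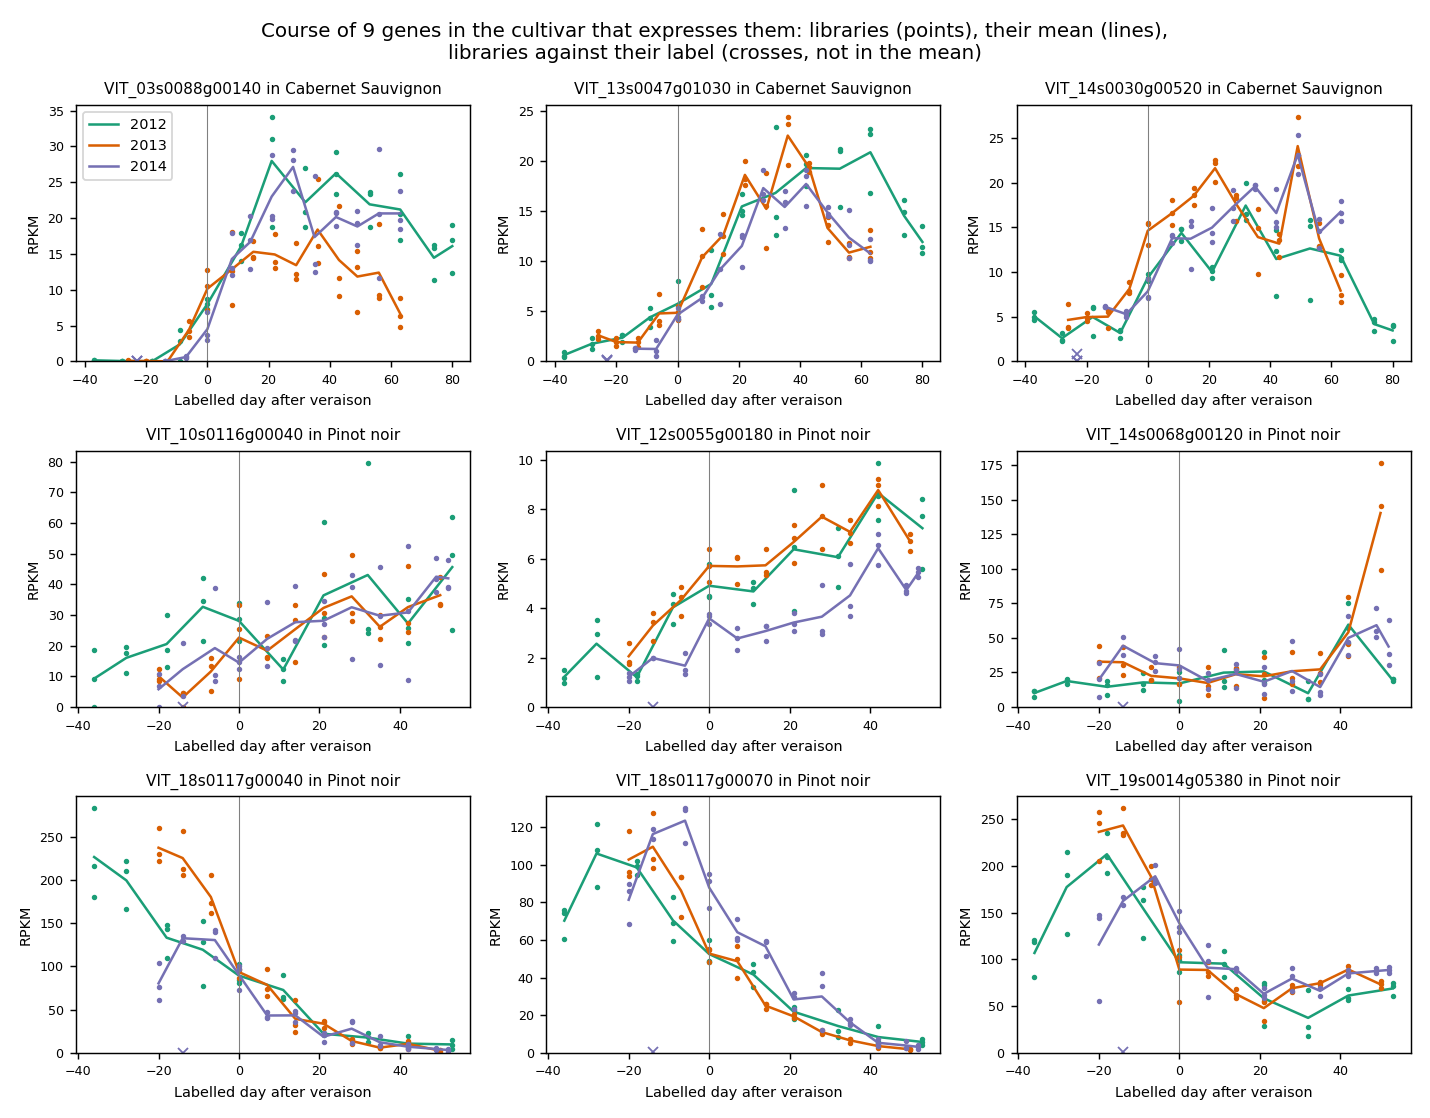
Level in RPKM of 9 genes against labelled day after veraison, each in the cultivar that expresses it, with 1 point per library, lines for the mean of the libraries and a colour per season; crosses mark libraries against their label, which are not in the mean. VIT_03s0088g00140 leaves 0 shortly before day 0 in all seasons, and the genes of the bottom row exceed 100 RPKM before day 0 and are lower at day 21.

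By season, the course was called in a different number of genes. The day 21 libraries of 2012 and 2013 are those of the rule, so falls were bounded there by the choice. In Pinot noir 2 genes rose (7.19% of genes tested) and 10 fell (22.9%) in 2012 and 2013. In 2014, 10 rose (6.31%) and 0 fell (18.1%) with the library against its label, and 1 rose (6.27%) and 9 fell (17.7%) without it. In Cabernet Sauvignon 3 rose (6.18%) and 1 fell (19.7%) in 2012 and 2013, and 6 rose (6.25%) and 0 fell (20%) in 2014. Because 1 season or a pair passing the threshold shows no difference between them, the course in 2014 was then set against its mean in 2012 and 2013 with an interaction term. In Cabernet Sauvignon 0 genes were higher (3.12% of genes tested) and 1 was lower (2.8%): VIT_07s0005g06200, at 10.0, 10.0 and 10.4 RPKM at day -14 of 2014 and 6.55, 4.77 and 5.50 at day 21. In 2012 and 2013 its sampling means before onset were 4.83 and 5.92 RPKM and those at day 21 to 22 were 5.66 and 7.59 RPKM. The difference of courses was -1.01 ± 0.23 (SE, limma adjusted p = 3.43e-04), and without the 4 libraries it was the same with an SE of 0.10. In Pinot noir 16 genes were higher (4%) and 0 lower (3.51%) with the library against its label, and 2 were higher (3.55%) and 1 lower (3.2%) without it. These were VIT_01s0010g01240 (1.98 ± 0.45 SE), VIT_19s0014g05400 (1.14 ± 0.42 SE) and, lower, VIT_14s0068g00120 (-1.34 ± 0.54 SE). VIT_01s0010g01240 was at 10.3 and 12.2 RPKM at day -14 of 2014 in the libraries that fit their label, against 21.2, 23.1 and 17.1 RPKM at day -18 of 2012 and 33.8, 57.7 and 56.3 RPKM at day -14 of 2013.

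The genes were not spread evenly over the gene order, as their IDs give it. Chromosome 19 held 8 of the 48 genes (16.7%) and 4.49% of all gene IDs, chromosome 18 held 7 (14.6%, against 7.68%) and chromosome 14 held 5 (10.4%, against 6.14%). No member carried the digits of chromosomes 2, 8 or 15, which hold 3.69%, 5.43% and 3.81% of all gene IDs. On sequence with no chromosome assigned lay 3 members (6.25%, against 8.77%). The 48 genes lay on 34 sequence pieces, 7 of which held 2 or more and 21 genes together. Of the 14 pairs next in line on a piece, 8 had at most 3 other genes of the table between them, and 6 of these 8 were high in the same cultivar. These shares are descriptions of the set and were not tested.

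On chromosome 18, a run of genes was read in Pinot noir only. In 2014 (time points 3 to 10, 24 libraries per cultivar) the median levels in Pinot noir were 21.4 RPKM for VIT_18s0117g00040, 19.8 for VIT_18s0117g00060 and 30.8 for VIT_18s0117g00070, all listed at 0 in each Cabernet Sauvignon library. The genes between and beside them were no members but had the same pattern: VIT_18s0117g00030 at 5.28, VIT_18s0117g00050 at 12.0 and VIT_18s0117g00080 at 4.86 RPKM in Pinot noir, against medians of 0, 0 and 0.04 RPKM in Cabernet Sauvignon. Their 5th percentiles in Pinot noir in the libraries of the rule were 0.02, 0.77 and 0.20 RPKM, under its limit of 2. VIT_18s0117g00030 and VIT_18s0117g00080 stood at 0.42 and 0.77 RPKM on average at day 42. VIT_18s0117g00050 went from 65.0 RPKM before onset to 8.71 at day 21 and 2.67 at day 42 in Pinot noir. Further along, VIT_18s0117g00130 was expressed in both cultivars (median 464 and 546 RPKM). VIT_18s0117g00140 was again higher in Pinot noir (10.1 against 0.12 RPKM) and VIT_18s0117g00150 was not called (60.5 and 65.4 RPKM).

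On chromosome 19, VIT_19s0014g05330, VIT_19s0014g05360, VIT_19s0014g05380 and VIT_19s0014g05400 had medians of 6.60, 110.5, 86.1 and 17.0 RPKM in Pinot noir in the same libraries and 0 in Cabernet Sauvignon. VIT_19s0014g05370, between them, was at 96.1 and 0 RPKM, and in Pinot noir it went from 295 ± 76.9 RPKM before onset (SD, n = 8) to 91.2 ± 22.7 at day 21 (n = 9). In the libraries of the rule its 95th percentile in Cabernet Sauvignon was 0.34 RPKM, just over the limit of 0.3. VIT_19s0014g05340 and VIT_19s0014g05350 had a median of 0 in both cultivars. The run ended at genes read in both, VIT_19s0014g05310 (75.4 and 73.1 RPKM) on one side and VIT_19s0014g05410 (1.37 and 1.01 RPKM) on the other. Where such neighbours are near-identical copies, reads may have been split or shared between them by the counting, so the level of each is less certain than that of the run.

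In another place the direction alternated from gene to gene. VIT_19s0085g00450 had a median of 4.56 RPKM in Pinot noir and 0.05 in Cabernet Sauvignon, the next ID VIT_19s0085g00460 had 0 and 5.39 RPKM, and VIT_19s0085g00470 had 12.3 and 0 RPKM. The genes that followed were read in both cultivars, VIT_19s0085g00480 at 11.1 and 1.87 RPKM, VIT_19s0085g00490 at 6.31 and 5.34 and VIT_19s0085g00500 at 61.1 and 14.4 RPKM. Of these, VIT_19s0085g00480 and VIT_19s0085g00500 were called higher in Pinot noir (differences of 2.00 and 1.97), and VIT_19s0085g00490 was not called. The libraries were not strand-specific, so reads of overlapping genes on opposite strands are not separated.

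On chromosome 14, VIT_14s0030g00930 and VIT_14s0030g00980 were both high in Cabernet Sauvignon, with 3 genes between them. In Cabernet Sauvignon VIT_14s0030g00930 stood at 9.92 ± 3.93 RPKM before onset and 4.43 ± 1.54 at day 21 (SD, n = 9 each), and VIT_14s0030g00980 at 6.49 ± 1.79 and 3.09 ± 0.77 RPKM. Neither was past the threshold over the 3 seasons. VIT_14s0030g00930 was called lower in 2012 and 2013 alone (-1.06 ± 0.18 SE), and both were called lower with each library scaled to the same sum (-1.15 ± 0.16 and -1.03 ± 0.16 SE). Of the genes between them, VIT_14s0030g00950 was read in both cultivars, with medians of 365 RPKM in Pinot noir and 220 in Cabernet Sauvignon in the libraries of the rule, and VIT_14s0030g00970 had 0 and 1.97 RPKM.

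**Figure D5:**
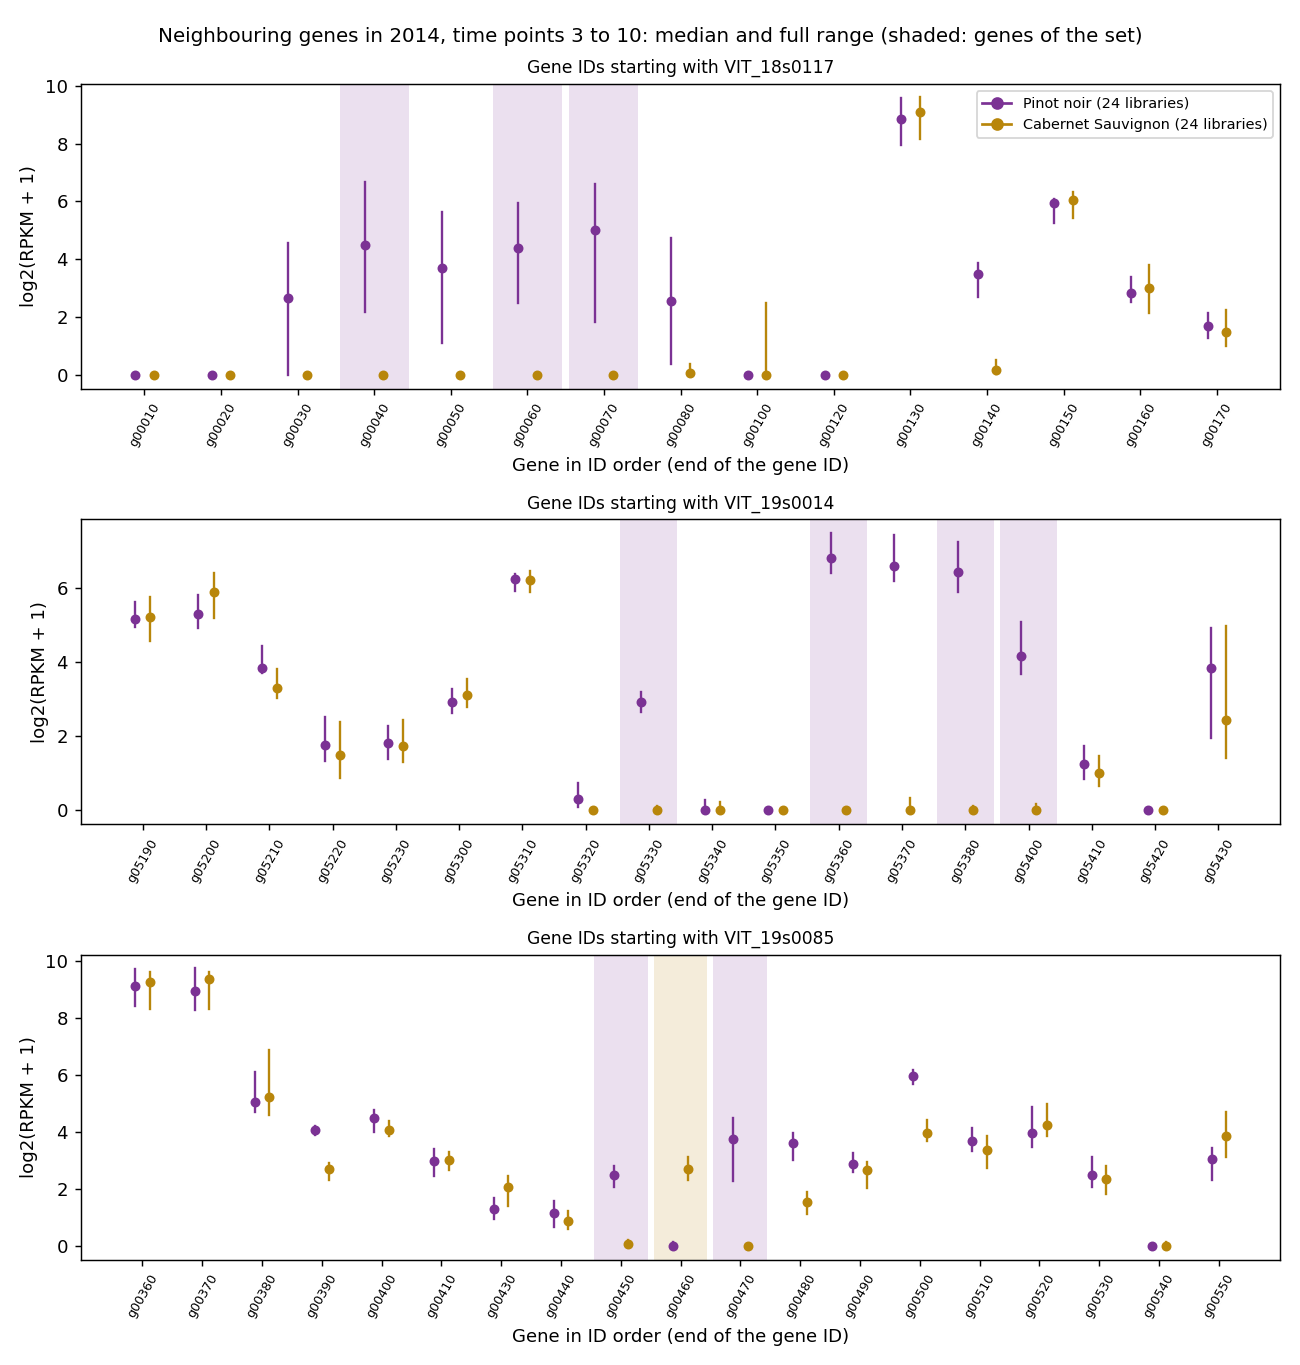
Genes in ID order at the 3 places, with the median (point) and full range (line) of log2(RPKM + 1) over 24 libraries per cultivar in 2014 at time points 3 to 10, and shading on the genes of the set in the colour of the expressing cultivar. In the upper panels the shaded genes and several between them are read in Pinot noir only, and in the bottom panel the cultivar alternates over 3 neighbouring IDs.

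Of the nearest gene IDs on each side that were not members, a minority was called in the direction of its member. For the Pinot noir set, 44 such genes were found, 32 passed the filter on low values, and 8 of these (25%) were higher in Pinot noir in 2014, against 3.93% of all genes tested, and 0 were lower. For the Cabernet Sauvignon set, 26 of 44 passed, 6 of these (23.1%) were higher in Cabernet Sauvignon, against 3.3% of all genes tested, and 1 was higher in Pinot noir. That 1 gene, VIT_19s0085g00480, is also among the 8 of the Pinot noir set, and VIT_19s0085g00440 is likewise counted in both sets. Both stand beside the genes of alternating direction. The median differences were 0.13 and -0.05. Not being called does not mean no difference: 19 of the 24 and 13 of the 19 neighbours not called had a limma adjusted p under 0.05 and a difference under 1 on the log2(RPKM + 1) scale. With a pseudocount of 5 the called neighbours numbered 5 and 2. Several of the called neighbours stand in the chromosome 18 and 19 runs. Others stood beside single members: VIT_07s0005g00540, next to VIT_07s0005g00530, had a mean of 28.4 RPKM in Cabernet Sauvignon and 0.10 in Pinot noir (-4.72 ± 0.12 SE). VIT_13s0047g01040, next to VIT_13s0047g01030, was at 19.4 and 1.22 RPKM (-3.09 ± 0.06 SE), and it too rose through ripening in Cabernet Sauvignon, from 4.80 RPKM before onset to 22.5 at day 21.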

How the data were processed

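Expression was measured by RNA sequencing of 120 Cabernet Sauvignon and 99 Pinot noir libraries, held in 1 table. The submitters' processing notes name TopHat2 2.0.6 (an aligner) and Cufflinks 2.0.2 (a quantifier). The genome build and annotation are not given in the sources used here. The authors deposited RPKM values for 29971 gene IDs without read counts. The low values showed no steps of whole reads (in 3142 low genes, at most 7.61% of ratios between libraries fell in 1 bin of 0.02 log2), so no count test was run. No sequence of these genes is shown.

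The 48 members were found by the percentile rule (linear interpolation). The filter of at least 1 RPKM in at least 3 libraries left 21425 genes. All 48 passed it, which their level in the rule's libraries of the expressing cultivar fixed in advance. For these, log2(RPKM + 1) was fitted with limma 3.58.1 (R 4.3.3), 1 mean per cultivar, season and time point in all libraries (146 residual degrees of freedom), with a trend and robust variance, and p-values were adjusted by Benjamini-Hochberg over all genes. In this fit the libraries in which a member is at 0 have almost no spread, so the pooled error can understate that of the expressing cultivar. The libraries against their labels act the other way, and raised the error of members shown with and without them. A fit on the compared libraries alone was an alternative. The fit was tested on simulated data. Means ± SD by stage leave out the 4 libraries against their labels.

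The members and lists were chosen with earlier results of these data known. Genes were named by a rule: per set the 8 highest, the largest called rises and falls, the members and other genes nearest the limits, and runs of neighbouring IDs. Further genes were named after their values were seen. Alternatives were the rule's limits and time points, pseudocounts of 0.1 and 5, other filters, scaling to the same sum, quantile normalization, left-out replicates and seasons, a replicate block, and the 4 libraries left out. Same-numbered replicates of different samplings did not deviate together (median correlation of their deviations 0.005, against -0.003 for other numbers), so the numbers were not taken to pair samples.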

Additional observations from a re-analysis of the deposited data

Results flagged for a closer look

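The course from before onset to day 21 differed between 2014 and the mean of 2012 and 2013 by limma's interaction term for 16 genes in Pinot noir, all with a higher value in 2014. The differences of courses on the log2(RPKM + 1) scale were 3.18 for VIT_01s0010g01240, 3.11 for VIT_19s0014g05380, 2.89 for VIT_19s0014g05360, 2.74 for VIT_19s0014g05400, 2.48 for VIT_18s0117g00070, 2.36 for VIT_00s0346g00050, 2.32 for VIT_18s0117g00060 and 2.16 for VIT_18s0117g00040. They were 1.95 for VIT_19s0085g00470, 1.72 for VIT_16s0039g01920, 1.71 for VIT_17s0053g00970, 1.69 for VIT_19s0014g03420, 1.62 for VIT_09s0018g00780, 1.21 for VIT_12s0028g00480, 1.19 for VIT_19s0014g05330 and 1.13 for VIT_14s0066g00170. The sampling before onset of 2014 holds the library labelled Pinot noir that carries the levels of the other cultivar. Without it VIT_01s0010g01240 (1.98) and VIT_19s0014g05400 (1.14) were still called and the other 14 were not. In Cabernet Sauvignon VIT_07s0005g06200 had a lower course in 2014 by -1.01, with or without the 4 libraries.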

How the results depend on the processing

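Limits of 1 and 0.5 RPKM in the rule gave 42 and 39 genes (Pinot noir set, then Cabernet Sauvignon set) and limits of 5 and 0.1 gave 11 and 2. With a pseudocount of 5, 12 of the 22 genes were called in ripening berries of 2014, 14 and 1 in green berries of 2014, 1 rose in the Pinot noir course, and 5 and 2 neighbours were called. Quantile normalization gave 5 rises in each cultivar's course (without the 4 libraries 5 in Cabernet Sauvignon, with 8 falls in Pinot noir). Falls in the Pinot noir course numbered 9 without the libraries against their labels, 3 in the fit of the compared libraries alone and 9 there without that library, 3 without season 2013 and 10 without season 2014, and 4 to 8 when 1 replicate number was left out. Falls in the Cabernet Sauvignon course, 0 as reported, numbered 2 with scaling to the same sum and with a pseudocount of 0.1, 1 without season 2013 or 2014, and 0 to 1 when 1 replicate number was left out. Of the 16 Pinot noir genes with a higher course in 2014, 2 were called without the libraries against their labels (and 1 lower) and 1 in the fit of the compared libraries alone, with or without that library; VIT_18s0117g00040 then turned to -0.20 and VIT_19s0014g05330 to -0.0497. The cause of the other changes was not tested. Of the recomputed counts, 213 stayed within 1.5 times the reported one and 29 did not. The replicate block left all 26 and all 22 genes called in 2014 and changed no call of a single gene (152 of 152). No read counts were given, so what depth limits could not be assessed, and levels under 0.3 RPKM cannot be told from 0 with known error.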
